A study of Macaca fascicularis and Mus musculus with 492 samples.

Results

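The nuclear-encoded genes of the respiratory chain were followed across the cell classes, embryonic days and cultures of a single-cell expression series of cynomolgus monkey and mouse. Members were all genes of the monkey table whose symbol begins with NDUF, UQCR, ATP5 or SDH (A to D), or matches COX4 to COX8 with further letters or digits. The rule found 88 of the 28797 monkey genes with values. Of these, 52 carry the symbol in the deposited table and 36 are listed there by a LOC number and take the symbol from a reference gene table. A gene of the same name is in the mouse table for 83 of the 88. By role, 7 are core subunits of complex I, 30 are accessory subunits of complex I and 7 are NDUFAF assembly factors. Complex II has 4 members, complex III 7 and complex IV 17. The catalytic F1 part of complex V (ATP synthase) has 5, and 11 are its other subunits or proteins named ATP5. NDUFA13, NDUFS6 and UQCR10 are not analysed here. NDUFA4 is grouped with complex I by its name, although it is now known as a protein associated with complex IV, and ATP5SL is likewise grouped by name.

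Complexes I to IV sit in the inner mitochondrial membrane and pass electrons from NADH and succinate to oxygen, and complex V uses the proton gradient that they build to make ATP. Complexes I, III, IV and V combine subunits from the nuclear genome with subunits from mitochondrial DNA, while all subunits of complex II are nuclear. Several subunits of complex IV exist as paralogs, with a broadly expressed form and a form known from heart and muscle, lung or testis. Before implantation the embryo depends on oxidative metabolism of pyruvate, and glycolysis gains weight around implantation.

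RNA of single cells was measured by SC3-seq, which amplifies the cDNA of 1 cell and reads the 3′ ends of transcripts. The monkey cells came from embryos of embryonic day 6 (E06) to E17 and from 3 cultures of embryonic stem cells (ESCs). The preimplantation embryos were trypsinised whole, and from implanted embryos the embryonic fragment was first dissected by hand. The mouse cells came from E5.5 and E6.5 embryos, after removal of the extraembryonic ectoderm and, at E6.5, of the distal epiblast, from ESCs and from epiblast-like cells (EpiLCs). The monkey ESCs were line CMK6 on mouse embryonic feeders (14 cells), CMK6 without feeders (9 cells) and line CMK9 on feeders (8 cells), and the feeder cultures were given knockout serum replacement, bFGF and mouse LIF. The 3 cultures therefore come from 2 lines. The mouse ESCs were line BVSC R8, grown feeder free in 2i and LIF (10 cells), and the EpiLCs were induced from such ESCs with activin A, bFGF and serum replacement (12 cells).

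Embryo cells were clustered without the members and named from marker genes. Epiblast-like cells were found at E07 (5 cells), E08 (24), E09 (5), E13 (24), E14 (25), E16 (22) and E17 (35), and all 8 epiblast markers were at 3 or more (log2) in each of these days. Hypoblast-like cells were found at E07 (7), E08 (33) and E09 (6), and trophectoderm-like cells at E06 (12), E07 (19), E08 (34), E09 (8) and E14 (9). Extraembryonic-mesenchyme-like cells were found at E13 (16) and E14 (14), and gastrulating-like cells at E13 (6), E14 (14), E16 (10) and E17 (18). A cluster of 40 cells, 31 of them at E06, met the rule for no marker list and stayed unnamed, and its E06 cells are shown as a unit. Some named clusters also had markers of another list elevated. Among them were 4 of 8 extraembryonic mesenchyme markers in trophectoderm-like cells of E14, 5 of 10 hypoblast markers in the cluster of all gastrulating-like cells of E16 and E17, and 4 of 10 in both extraembryonic-mesenchyme-like clusters. The other gastrulating-like cluster had 4 of 8 epiblast markers, and the early epiblast-like cluster 3 of 8 trophectoderm markers. The trophectoderm-like cluster of E07 to E09 had 3 of 10 hypoblast markers. Of the 19 trophectoderm-like cells of E07, 9 clustered with those of E06 and 10 with those of E08 and E09. The ESC cultures had 7 of the 8 epiblast markers at 3 or more. Each class at 1 day, or each culture, is 1 unit. The labels name no embryos, so p-values rest on how days or cultures differ and carry no information on animals. Monkey cells held a median of 1879340 reads (166742 to 4491530).

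Monkey cells gave 1.56% to 3.54% of their reads to the 88 genes, taken as the mean over the cells of a unit. The share was 3.54% ± 0.489 (SD over 12 cells) in trophectoderm-like cells of E06 and 3.29% ± 0.228 (SD over 31 cells) in the unnamed cells of that day. In later trophectoderm-like cells it was 3.03% at E07, 2.51% at E08, 2.87% at E09 and 2.27% at E14. Epiblast-like cells gave 2.79%, 2.58% and 2.55% at E07, E08 and E09, and 2.40%, 2.05%, 1.73% and 2.03% on the later days E13 to E17 (the plot of shares by unit). The 4 later days of epiblast-like cells thus lay below the 3 earlier ones without overlap of their means. Hypoblast-like cells gave 2.51%, 2.31% and 2.39% at E07 to E09, below the epiblast-like mean on each of these days. The lowest share was in extraembryonic-mesenchyme-like cells of E14, with 1.56% ± 0.246 (SD over 14 cells), against 2.17% in those of E13. Gastrulating-like cells of E13, E14, E16 and E17 gave 2.33%, 1.92%, 1.77% and 2.0%, near the epiblast-like cells of the same days. The ESC cultures gave 2.02% (CMK6 feeder free), 2.2% (CMK6 on feeders) and 2.25% (CMK9 on feeders). A share rises or falls with the rest of the RNA in a cell, so it is no amount per cell.

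**Figure D1:**
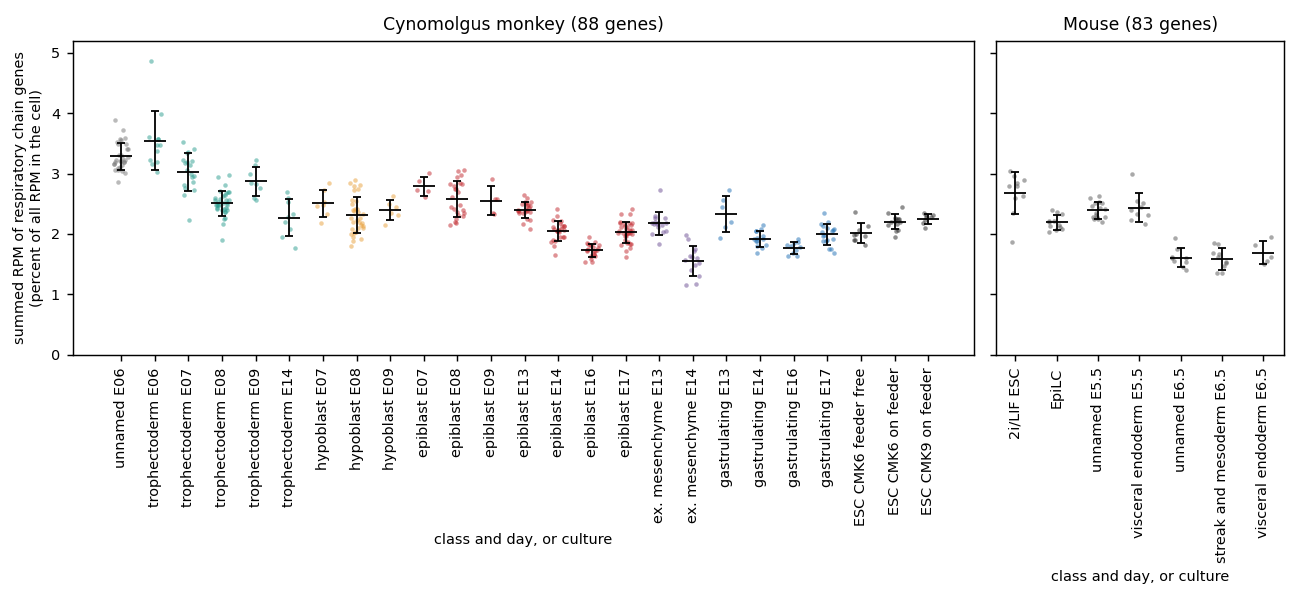
Summed RPM of the respiratory chain genes as a percent of all RPM in a cell (y axis), by class and day or culture (x axis), for monkey (88 genes) and mouse (83 genes). Each point is 1 cell, and bars show the mean and SD over cells; class names are marker-based ("like") names. The unit means fall from 3.54% in trophectoderm-like cells of E06 to 1.56% in extraembryonic-mesenchyme-like cells of E14, and 1 trophectoderm-like cell of E06 lies at 4.87%.

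Most members were expressed in every unit. Levels are means over cells of log2(RPM + 1), in which reads of the 3′ end are not divided by gene length. Of the 88 members, 79 had a mean level of 2 or more in each of the 25 monkey units, and 59 were detected in every monkey cell. The median of the members' mean levels was 7.41. The highest mean over cells was that of ATP5A1 (10.8), the alpha subunit of ATP synthase, and the lowest that of COX6A2 (0.02), the heart and muscle form of a complex IV subunit. The unit with the highest level was trophectoderm-like E06 for 29 members and the unnamed E06 cells for 15. The unit with the lowest level was extraembryonic-mesenchyme-like E14 for 25 members, gastrulating-like E17 for 13 and epiblast-like E16 for 10.

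Within complex I, NDUFB4 had the highest mean level, between 8.82 (extraembryonic-mesenchyme-like E14) and 9.87 (trophectoderm-like E09). In complex II, SDHA, the flavoprotein that oxidises succinate, had the lowest level of the 4 subunits in each unit. SDHA lay at 2.29 to 3.18 in trophectoderm-like cells of E06 to E09, and at 0.64 to 0.96 in epiblast-like cells of E13 to E17. SDHB, the iron-sulfur subunit of the same enzyme, ranged from 6.11 to 8.20, and SDHD, a membrane anchor, from 6.72 to 8.30. In 3′-end data such gaps between subunits of 1 complex need not be gaps in mRNA number, because the annotated 3′ end decides which reads count. The part of the annotation in these gaps was not tested. In complex III, UQCRB ranged from 8.21 to 10.25 and UQCRH from 5.24 to 7.23. UQCRC1, a core subunit, and UQCRFS1, the Rieske iron-sulfur protein, ranged from 6.30 to 7.95 and from 6.78 to 8.27. Complex IV had the widest spread, from COX7C (9.54 to 11.35) down to COX6A2, which was listed at 0 in 22 of the 25 units. In the F1 part of complex V, ATP5A1 ranged from 10.26 to 11.32, the catalytic beta subunit ATP5B from 8.37 to 9.75 and ATP5D, the delta subunit, from 3.5 to 5.31.

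**Figure D2:**
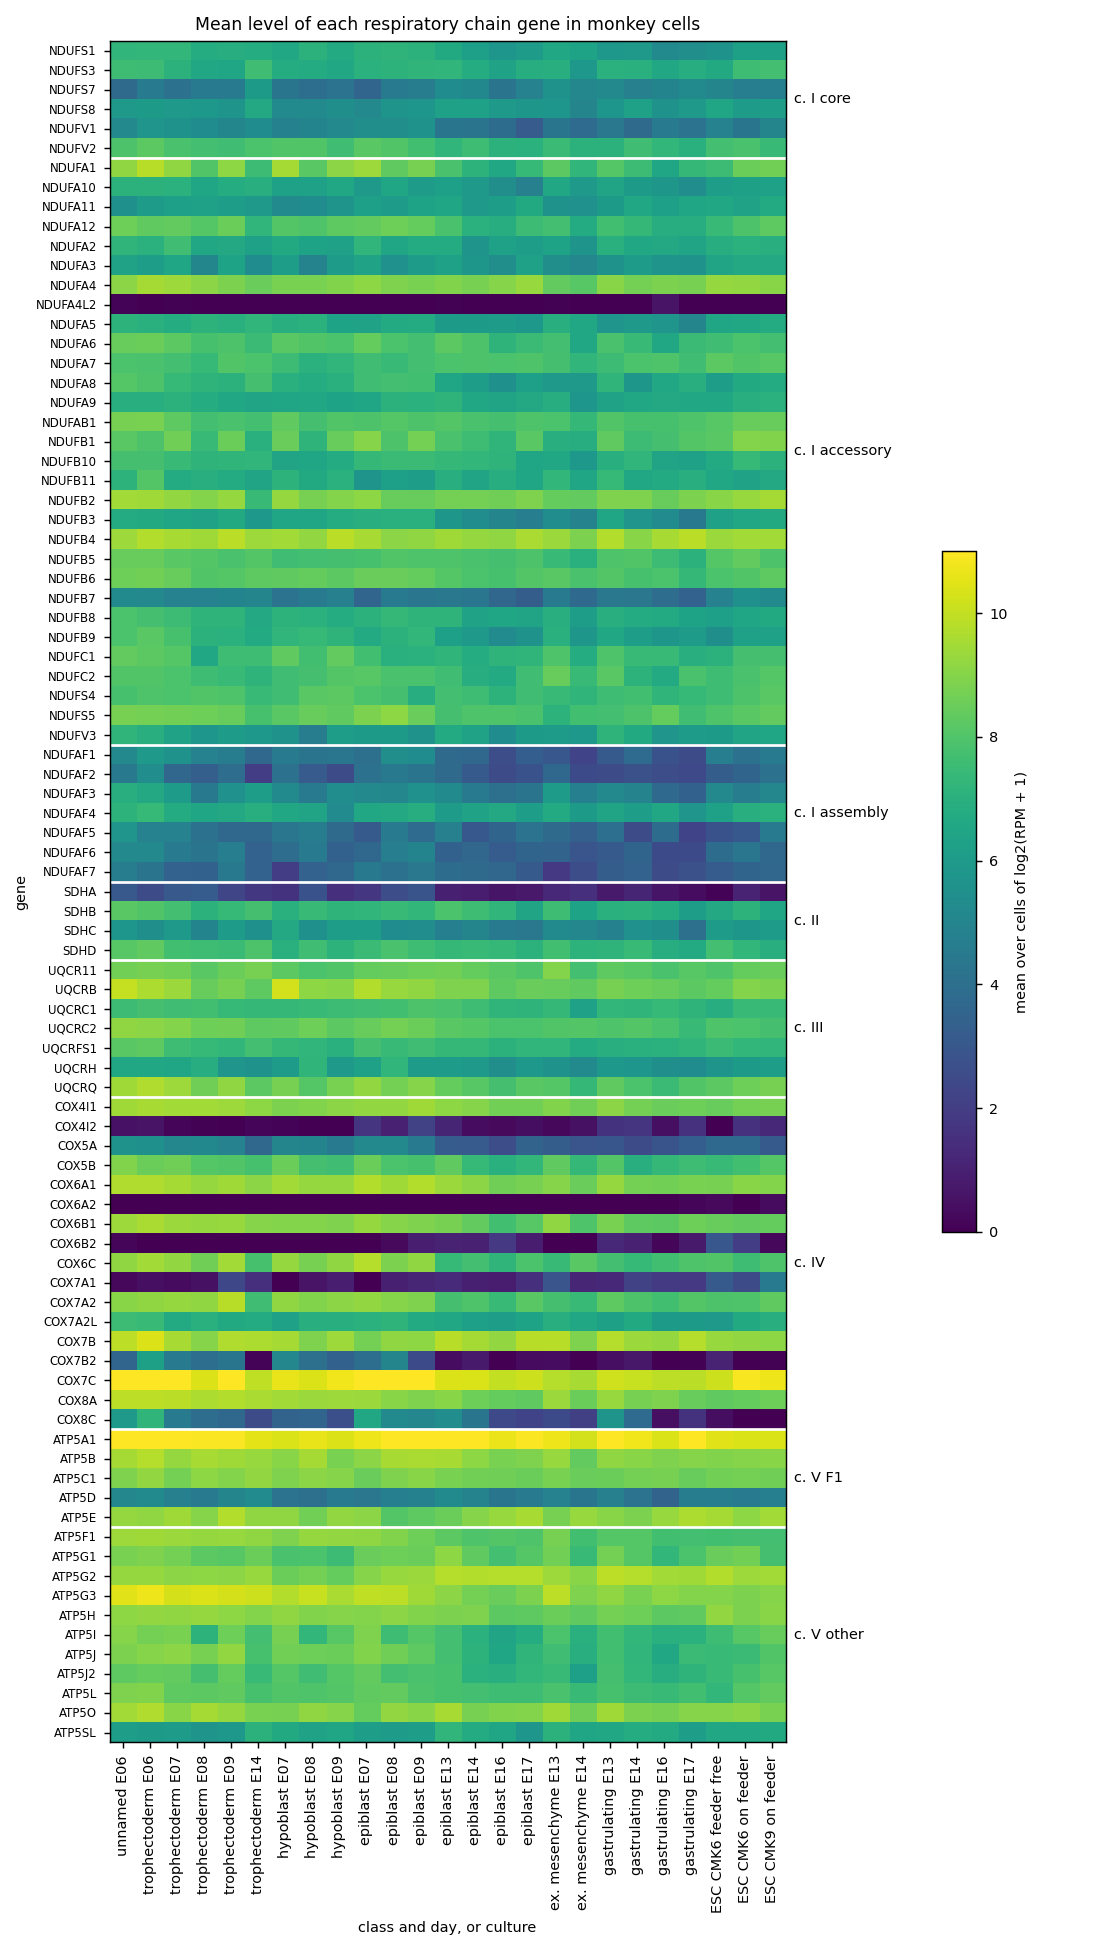
Mean over cells of log2(RPM + 1) (colour) for the respiratory chain genes (rows, grouped by complex, "c." for complex) in each of the 25 monkey units (columns). Dark rows are paralogs with low levels (NDUFA4L2, COX4I2, COX6A2, COX6B2, COX7A1) and SDHA, and COX7B2 and COX8C are bright at the left and dark at the right.

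The paralog pairs showed where the broadly expressed form was joined by a second form. COX4I1, the common form of subunit 4, lay between 8.45 and 9.57 in all units. COX4I2, known from lung and from hypoxia, reached 1.00 to 2.17 in epiblast-like cells of E07 to E09, and lay between 0.00 and 0.59 in trophectoderm-like and hypoblast-like cells. It was read in 66.7%, 42.9%, 20% and 38.9% of gastrulating-like cells of E13, E14, E16 and E17, and in 25.8% of the unnamed cells of E06. In the ESC cultures it was at 0.00 in CMK6 without feeders, 1.55 in CMK6 on feeders and 1.25 in CMK9. COX6A1 lay between 8.49 and 9.72. COX6A2 was detected in 1 of 18 gastrulating-like cells of E17, 1 of 9 feeder-free CMK6 cells and 1 of 8 CMK9 cells, and in no other cell of the 25 units. NDUFA4 lay between 8.14 and 9.53, and NDUFA4L2, known as a hypoxia-induced relative, reached at most 0.58, in gastrulating-like cells of E16.

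COX6B2, the testis form of COX6B1, was read in no trophectoderm-like, hypoblast-like or extraembryonic-mesenchyme-like cell. In trophectoderm-like cells of E08 that was 0 of 34 cells, which allows a share of up to 8.82%, and in hypoblast-like cells of E08 0 of 33, which allows up to 9.09%. Epiblast-like cells had it in 0 of 5 cells of E07, which allows up to 60%, in 2 of 5 of E09, in 20.8% of the 24 cells of E08, 33.3% of those of E13, 32% (E14), 54.5% (E16) and 31.4% (E17) (exact Clopper-Pearson 95% interval at E16 32.2% to 75.6%). After thinning each cell to 150000 reads the counts at E07 and E09 were 0 and 1, and the shares at E08 and E13 to E17 were 8.33%, 29.2%, 12%, 40.9% and 17.1%. Without thinning, gastrulating-like cells of E13, E14, E16 and E17 had COX6B2 in 33.3%, 35.7%, 10% and 22.2% of cells. The unnamed cells of E06 had it in 12.9%. The ESC cultures differed from each other. COX6B2 was at 2.99 in CMK6 without feeders (8 of 9 cells), at 1.99 in CMK6 on feeders (10 of 14) and at 0.23 in CMK9 on feeders (1 of 8, interval 0.316% to 52.7%). COX6B1 was at 8.46, 8.34 and 8.41 in the same cultures. CMK6 and CMK9 on feeders share title code MS05 (the MS number in the cell titles) and differ in line, with 1 culture each. Between the CMK6 cultures, feeders and title code (MS05 and MS11) cannot be told apart. The limits for 0 cells, here and below, are 3 divided by the number of cells. That is an approximation, too wide for few cells, and not the exact interval. These intervals and limits cover counting error only.

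COX7B2 and COX8C, both known from testis, were expressed before implantation in each class. COX7B2 lay at 6.27, 4.47, 3.98 and 4.30 in trophectoderm-like cells of E06 to E09, at 5.09, 4.07 and 3.40 in hypoblast-like cells and at 3.98, 4.99 and 2.48 in epiblast-like cells of E07 to E09. It was read in 12 of 12 trophectoderm-like cells of E06, 30 of 33 hypoblast-like cells of E08 and 22 of 24 epiblast-like cells of E08, and after thinning in 12, 25 and 20 of them. After E09 it was at 0.82 or below in each embryo unit, and read in 1 of 9 trophectoderm-like cells of E14. COX8C lay at 7.21 in trophectoderm-like cells of E06 and 5.91 in the unnamed cells of that day. In the ESC cultures it was read in 4 of 9, 1 of 14 and 0 of 8 cells, and 0 of 8 allows a share of up to 37.5%. Their broadly expressed counterparts stayed high throughout, COX7B between 8.68 and 10.42 and COX8A between 8.30 and 9.91.

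COX7A1, the heart and muscle form of COX7A2, was highest in CMK9 cells, at 4.58 and read in 8 of 8 cells. It was at 3.13 and 2.53 in the CMK6 cultures without and on feeders, at 2.91 in extraembryonic-mesenchyme-like cells of E13 and at 2.40 in trophectoderm-like cells of E09. In epiblast-like cells it lay between 0.00 (E07) and 1.48 (E17). The 3 genes ATP5G1, ATP5G2 and ATP5G3 encode the same mature c subunit of ATP synthase behind different targeting sequences. ATP5G3 was the highest of them in trophectoderm-like cells of each day (10.18 to 10.73) and in hypoblast-like cells (9.61 to 10.07), and ATP5G2 was the highest in epiblast-like cells of E13 to E17 (9.75 to 9.79) and in the ESC cultures (9.39 to 9.74). The handling of reads shared by near-identical copies is not known from the labels, so levels within this family and between the other close paralogs are uncertain. The reference gene table lists the gene deposited as ATP5G2 by a LOC number only, and has no entry for ATP5I. These names rest on the deposited table alone.

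**Figure D3:**
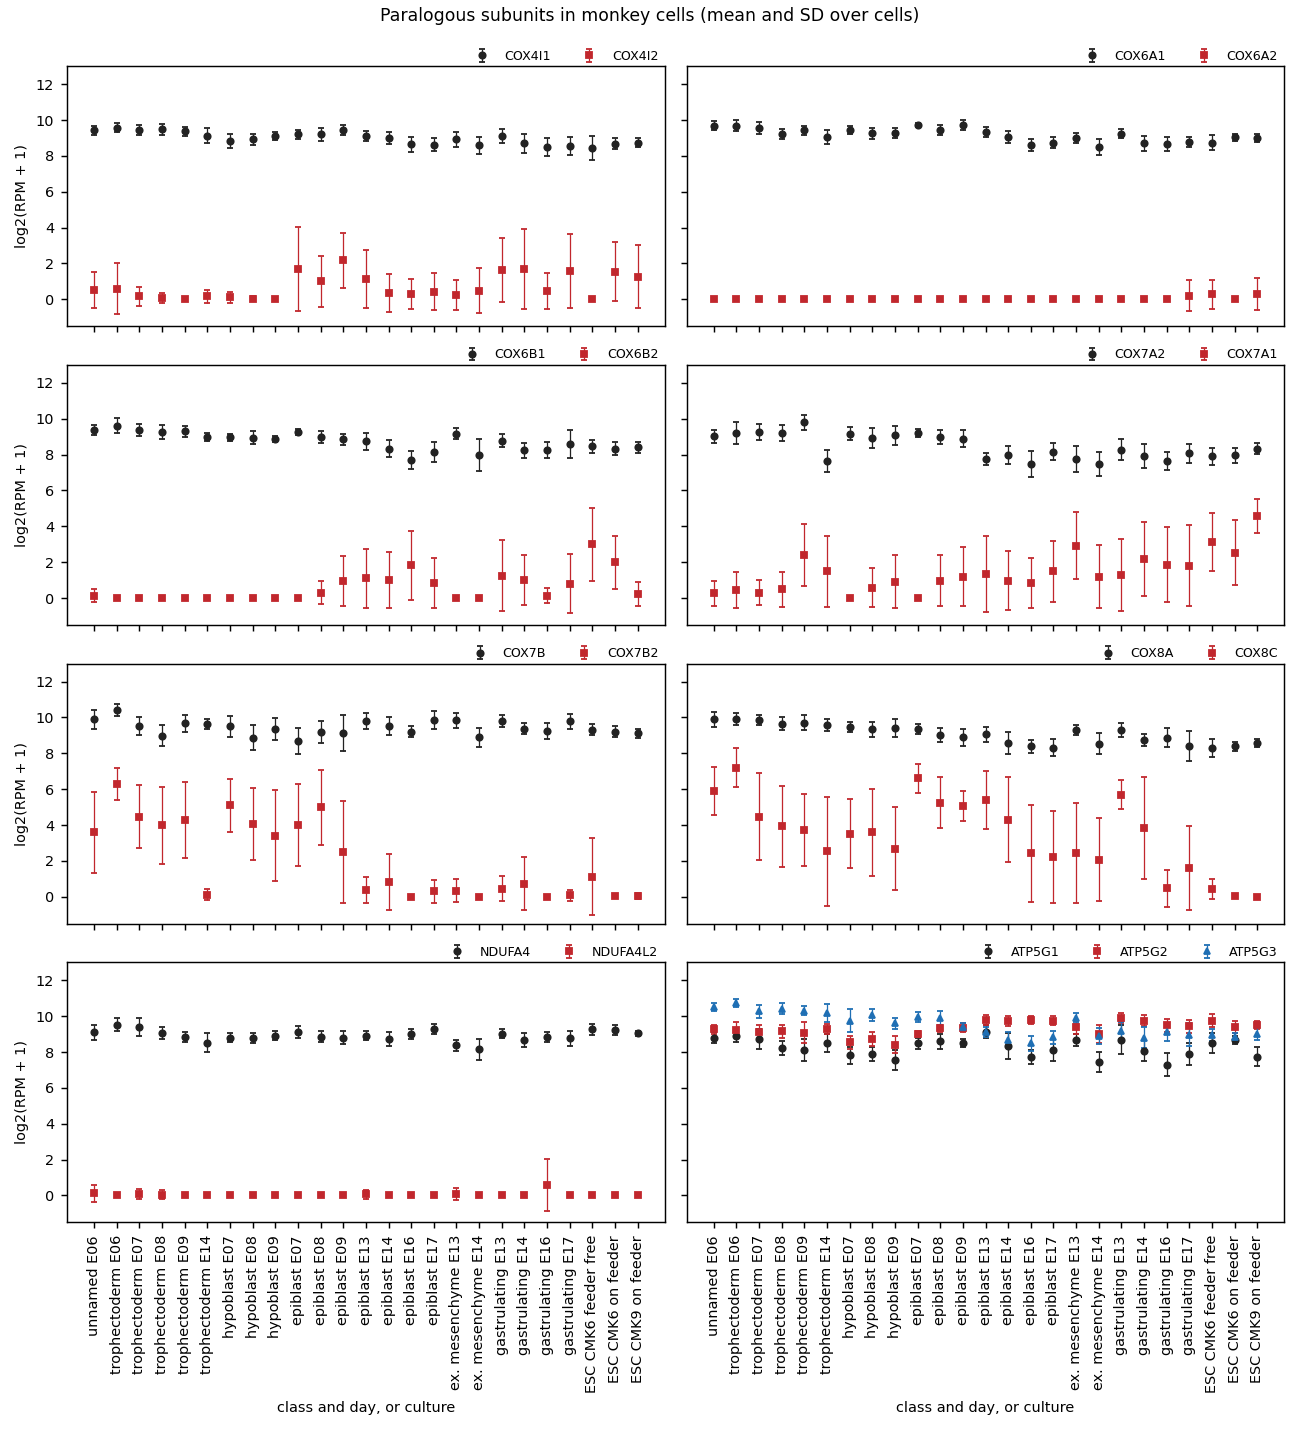
Mean and SD over cells of log2(RPM + 1) (y axis) of paralogous subunits in the 25 monkey units (x axis), 1 panel per family. COX7B2 and COX8C are at 2.48 or more in each class through E09, COX7B2 is at 1.11 or below in the units of E13 to E17 and the ESCs, and ATP5G3 crosses below ATP5G2 between epiblast-like cells of E09 and E13.

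The comparison of epiblast-like cells after implantation (E13, E14, E16, E17) with those before (E07, E08, E09) spans implantation. The early cells form 1 cluster and the late cells 2 others (E13 with E14, E16 with E17), so the comparison is between different clusters. Of 88 members, 82 passed the filter on low values (3 or more units with a mean of 2 or higher). In limma with Benjamini-Hochberg adjustment over all 9897 genes tested, 34 members were lower and 3 higher in the late days (adjusted p under 0.05). Over all genes tested, 24.2% were called lower and 13.3% higher, and the 34 lower members are 41.5% of those tested and 38.6% of all 88. The median difference of the members was -0.52 (log2), and that of all genes tested was -0.26, so differences are also given relative to -0.26. The values of the 4 late days lay below those of the 3 early days without overlap for 37 of the 82 members (45.1%) and above them for 5 (6.1%), against 28.1% and 14.9% of all genes tested. Without E07 the count of called members fell from 37 to 23. Early and late days share title code MS08 alone, by 2 early cells, and differ in how the embryos were dissociated, so day, title code and dissection cannot be told apart. The 8 trophectoderm markers moved the same way, from a mean level of 3.96 to 4.26 in early epiblast-like days to 2.01 to 2.59 in late ones with none at 0 in any of these days, and their part in the result was not tested.

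Among tested members, complex IV had the largest share of lower calls, 9 of 13 with 1 higher, and a median of -0.81. Over all members, tested or not, the lower calls were 9 of 17, beside 6 of 11 for the other members of complex V. COX7B2 stood at 3.98, 4.99 and 2.48 on the early days and at 0.36, 0.82, 0.00 and 0.31 on the late days. All late days lay below all early days, and the difference was -3.45 (SE 0.51, adjusted p 0.000271), or -3.19 relative to all genes. COX7B2 passed the filter through its early days, where it was high. COX5A, a nuclear subunit on the matrix side of complex IV, stood at 5.19, 5.18 and 4.6, then at 3.20, 3.16, 2.59 and 3.49, a difference of -1.88 (SE 0.36, adjusted p 0.00171). COX6C stood at 9.78, 8.84 and 9.16, then at 7.35, 7.70, 7.20 and 7.88, a difference of -1.73 (SE 0.24, adjusted p 0.000183). Both sets of days were apart for these genes. COX7A2 fell by 1.19 and COX7C by 0.90, and COX6B1, COX6A1 and COX7A2L, a factor of respiratory supercomplexes, by 0.65 to 0.81. COX6B1 lost its call without E07 (adjusted p 0.0616), COX6A1 without E07 (0.0514) or E09 (0.0568), and COX7A2L lost it without any of 5 days (0.0515 to 0.13). COX8C differed among the late days themselves, with 5.39 at E13, 4.29 at E14 and 2.42 and 2.22 at E16 and E17, against 6.60, 5.25 and 5.08 on the early days. The groups overlapped, since E13 lay above E08 and E09, and the difference of -2.06 (SE 0.69, adjusted p 0.0323) was no longer called without E07 (adjusted p 0.136), E08, E16 or E17. COX7B was the 1 member of complex IV called higher, at 8.68, 9.19 and 9.12, then 9.80, 9.52, 9.21 and 9.84, a difference of 0.60 (SE 0.19, adjusted p 0.0265). Its E16 level lay just above that of E08, and its call was lost without E07 (0.115), E13 (0.0528) or E17 (0.0703).

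In complex I, 3 of 7 core subunits, 10 of 29 tested accessory subunits and 2 of 7 assembly factors were called lower, and 1 accessory subunit higher. The medians of these groups were -0.30, -0.31 and -0.74. NDUFV1, which holds the flavin that takes electrons from NADH, stood at 5.43, 5.42 and 5.66 on the early days and at 4.27, 4.25, 3.89 and 3.15 on the late ones. The difference was -1.61 (SE 0.35, adjusted p 0.00331). NDUFS1, the largest iron-sulfur core subunit, stood at 7.08, 7.14 and 7.06, then at 6.69, 6.21, 5.76 and 6.06, and fell by 0.92 (adjusted p 0.0101). The late days of NDUFV1 and NDUFS1 all lay below their early days. NDUFB3, an accessory subunit of the membrane arm, was nearly level over the early days at 6.89, 6.97 and 7.0, and stood at 5.81, 5.40, 4.99 and 4.71 on the late days, a difference of -1.73 (SE 0.28, adjusted p 0.000553). NDUFA8 stood at 7.62, 7.72 and 7.67, then at 6.48, 6.14, 5.51 and 6.21, a difference of -1.58 (SE 0.24, adjusted p 0.000353). NDUFA1 fell by 1.57, NDUFB9 by 1.26, NDUFA12 by 1.13 and NDUFS5 by 0.92. The assembly factor NDUFAF1 fell by 1.59, a call lost without E08 (adjusted p 0.0683) or E09 (0.0585). NDUFAF2, another assembly factor, fell by 1.19, and its call held in the fit without E13 but in none of the fits without 1 of the other 6 days (0.0515 to 0.104). The remaining 5 lower calls (NDUFV2, NDUFA5, NDUFB1, NDUFB6, NDUFC2) lay between -0.85 and -0.49 and were each lost in at least 2 of the fits without 1 day, with adjusted p up to 0.136 for NDUFB1 without E07. NDUFB11 was higher in the late days, at 5.67, 6.20 and 6.15 and then 6.88, 6.43, 6.87 and 6.5, by 0.66 (SE 0.24, adjusted p 0.0428). That call held in the fit without E14 and was lost without any of the other days (up to 0.153 without E07).

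In complex II, 1 of 3 tested subunits was lower, the membrane anchor SDHC, at 6.12, 5.35 and 5.39, then 4.76, 5.00, 4.59 and 4.39. The difference of -0.93 (SE 0.31, adjusted p 0.0297) was lost without E07 (0.134), E16 (0.0567) or E17 (0.0694). SDHA did not pass the filter. It was read in 23 of 24 cells at E08 and 13 of 35 at E17, and after thinning to 150000 reads in 15 and 6 of them. In complex III, 3 of 7 members were lower with a median of -0.54. UQCRQ, a small subunit, stood at 9.24, 8.71 and 9.01, then at 8.41, 8.14, 7.77 and 8.19, a difference of -0.86 (SE 0.19, adjusted p 0.00437). UQCRB fell by 0.75, a call lost without E07 (0.054), and the core subunit UQCRC2 by 0.54, a call lost without E08 (0.0921), E09, E16 or E17. UQCRC1 and UQCRFS1, at 7.64 to 7.95 and 7.46 to 7.74 on the early days and 7.17 to 7.85 and 7.08 to 7.34 on the late ones, were not called.

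In complex V, none of the 5 tested F1 members was called by limma, and their median was 0.04, which turned to -0.08 under quantile normalization. ATP5A1 stood at 10.71, 11.02 and 11.13, then between 10.67 (E16) and 11.32 (E13), and ATP5B at 9.08, 9.55 and 9.58, then at 9.55, 9.14, 8.77 and 8.89. For both catalytic-head subunits the days overlapped. Of the 11 other members, 6 were lower and 1 higher. ATP5J, the coupling factor of the stalk, stood at 8.91, 8.60 and 8.29, then at 7.70, 7.12, 6.52 and 7.19, a difference of -1.47 (SE 0.26, adjusted p 0.000934). The c-subunit genes moved in opposite directions. ATP5G3 stood at 9.96, 9.90 and 9.42, then at 9.10, 8.70, 8.49 and 8.83, and fell by 0.98 (SE 0.19, adjusted p 0.00166). ATP5G2 stood at 9.0, 9.31 and 9.36, then at 9.79, 9.75, 9.78 and 9.76, and was higher by 0.54 (SE 0.14, adjusted p 0.0106), or 0.80 relative to all genes. ATP5G1, at 8.48 to 8.59 and then 7.73 to 9.14, was not called. ATP5I fell by 1.20, a call lost without E07 (0.063), and the b subunit ATP5F1 by 0.83. ATP5J2 and ATP5L, at -0.73 and -0.52, each lost their calls in 5 of the 7 fits without 1 day.

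Of the 34 lower calls, 17 were kept in each of the 7 fits without 1 day, and 9 of these also in each of the 9 other alternatives: NDUFA8, NDUFB3, NDUFS5, COX5A, COX6C, COX7A2, COX7B2, ATP5G3 and ATP5J. COX7B2 is among them as a gene that was tested only through its high early days. Among the higher calls, ATP5G2 was kept in each fit without 1 day.

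**Figure D4:**
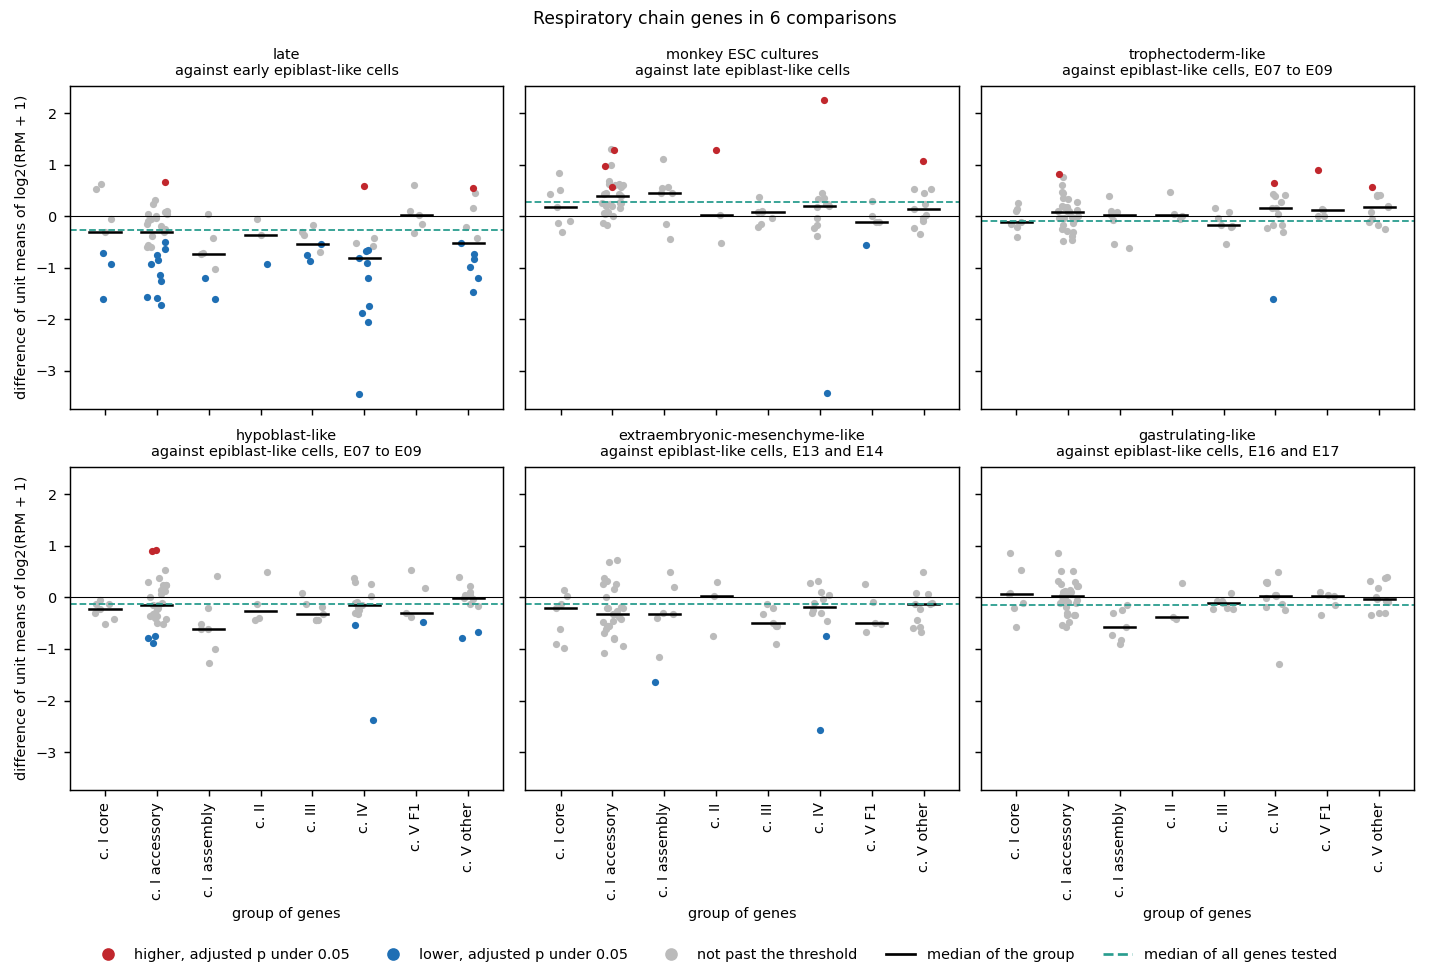
Difference of unit means of log2(RPM + 1) (y axis) for each tested respiratory chain gene (points), by group of genes (x axis), in the 6 monkey comparisons. Blue and red points are lower and higher at an adjusted p under 0.05 in limma, black bars are group medians and dashed lines the median of all genes tested. In late against early epiblast-like cells 34 points are blue and 3 red, and in gastrulating-like against epiblast-like cells none is coloured.

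A list of other genes of mitochondrial respiration was read from the same fits, 64 of them in the table. In late against early epiblast-like days, 24 of 61 tested were lower and 1 higher, with a median of -0.55, against 24.2% lower, 13.3% higher and a median of -0.26 for all genes tested. Of 16 genes of the pyruvate dehydrogenase complex and the TCA cycle, 10 were lower (median -1.08). SUCLA2, a subunit of succinyl-CoA ligase, fell by 2.46 (adjusted p 0.000194), the pyruvate dehydrogenase subunit PDHB by 1.83 (3.07e-05) and fumarase (FH) by 1.36 (0.00246). Of 14 regulators of mitochondrial gene expression 11 were tested, with 6 lower and none higher. Among the lower were the coactivator PPARGC1B (-2.66, adjusted p 0.000808), the mitochondrial transcription factor TFB2M (-2.02, 0.000194) and TFAM (-0.74, 0.00946), which packs mitochondrial DNA. The related coactivator PPARGC1A went mostly the other way in the share of cells in which it was read. That share was 60%, 20.8% and 20% on the early days and 70.8%, 80%, 81.8% and 45.7% on the late ones. Of 24 assembly factors 5 were lower with a median of -0.28, near the values of all genes, among them the copper chaperone COX17 at -1.52 (0.00376). The ADP/ATP carriers moved apart, with SLC25A5 at -1.30 (0.000437) and SLC25A4 at 0.92 (0.0265).

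Monkey ESC cultures were set against the same late epiblast-like days, so both comparisons share those units. Of 82 tested members, 6 were higher and 2 lower by limma, against 7.14% and 1.52% of the 9880 genes tested, a share of higher calls near that of all genes. The median of the members was 0.24 and that of all genes 0.28. The values of the 3 cultures lay above the 4 days without overlap for 13 members (15.9%) and below for 4 (4.88%), near the 19.3% and 4.53% of all genes tested. COX7A1 stood at 3.13, 2.53 and 4.58 in CMK6 without feeders, CMK6 on feeders and CMK9, against 1.35, 0.96, 0.86 and 1.48 on E13, E14, E16 and E17, a difference of 2.25 (SE 0.47, adjusted p 0.018). It passed the filter through the cultures, where it was high, and lost its call without E14 (0.0573). COX8C stood at 0.41, 0.03 and 0.00 against 5.39, 4.29, 2.42 and 2.22, a difference of -3.44 (SE 0.68, adjusted p 0.0151), and passed the filter through the epiblast-like days. SDHC stood at 6.02, 5.83 and 6.04 against 4.39 to 5.00, a difference of 1.28 (SE 0.27, adjusted p 0.0178). Cultures and days did not overlap for these genes. NDUFB3 was higher by 1.29 (adjusted p 0.025), ATP5I by 1.07 (0.049), NDUFB1 by 0.98 (0.0416) and NDUFB2 by 0.57 (0.0456), and ATP5A1 was lower by 0.56 (0.0453). None of the 8 calls held in every fit without 1 unit, and the count fell to 1 without CMK6 on feeders or without CMK9, to 2 without E14, to 4 without E16 and to 5 without E17. Without CMK6 on feeders SDHC had an adjusted p of 0.0578 and COX8C of 0.0526. Within title code MS11, which holds 9 feeder-free CMK6 cells and 8 epiblast-like cells of E17, the median difference of the members was 0.02, with SDHC at 0.80, COX8C at -1.43, COX7A1 at 1.60, NDUFB3 at 1.5, ATP5I at 0.28, NDUFB2 at 0.27, ATP5A1 at -0.21 and NDUFB1 at -0.04, the opposite direction for the last. Of 60 other genes of respiration tested, 1 was called, SUCLG2 (1.28, adjusted p 0.0471).

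Trophectoderm-like and epiblast-like cells were compared over E07, E08 and E09, with the epiblast-like units that also serve as the early days above. Of 83 tested members 4 were higher and 1 lower in trophectoderm-like cells by limma, against 11.3% and 13.9% of the 9637 genes tested. The median was 0.05 for the members and -0.09 for all genes, and without trophectoderm-like cells of E07 the members' median was -0.09. The days did not overlap for 8 members above (9.64%) and 4 below (4.82%), against 17% and 23.2% of all genes tested. ATP5E, the epsilon subunit of F1, stood at 9.41, 9.02 and 9.73 against 9.08, 8.08 and 8.29, a difference of 0.90 (SE 0.26, adjusted p 0.0269). NDUFB11 stood at 6.78, 6.91 and 6.79 against 5.67, 6.20 and 6.15, a difference of 0.82 (SE 0.21, adjusted p 0.0166). COX8A stood at 9.84, 9.65 and 9.71 against 9.35, 9.04 and 8.89, a difference of 0.64 (SE 0.16, adjusted p 0.0137), and ATP5G3 was higher by 0.58 (adjusted p 0.0283). Trophectoderm-like cells were above epiblast-like cells on each of the 3 days for these 4 genes. COX8C stood at 4.47, 3.94 and 3.70 against 6.60, 5.25 and 5.08, a difference of -1.60 (SE 0.43, adjusted p 0.0175). Each of the 5 calls was lost in at least 2 of the 6 fits without 1 unit. The count was 1 without trophectoderm-like E09, 2 without trophectoderm-like E08 or epiblast-like E09 and 3 without epiblast-like E08. Within title code MS02 (34 against 23 cells) the member median was -0.18, and within MS03 (24 against 9 cells) 0.18. The 5 called members kept their direction within both codes, with COX8C at -1.35 and -0.89. Among the other genes of respiration 10 of 63 were higher and 1 lower. The estrogen-related receptors ESRRB and ESRRG were higher by 3.92 (adjusted p 0.000739) and 2.70 (0.000844), citrate synthase (CS) by 0.67 (0.00851), the TCA cycle enzyme subunit IDH3A by 1.10 (0.00166) and the pore protein VDAC1 by 1.03 (0.00746). The carrier UCP2 was lower by 3.01 (0.00165). ESRRG was read in 40%, 50% and 60% of epiblast-like cells of E07, E08 and E09, against 73.7%, 85.3% and 87.5% of trophectoderm-like cells. UCP2 was read in 57.9%, 67.6% and 75% of trophectoderm-like cells, against 80%, 95.8% and 100% of epiblast-like cells. The days of 1 class alone could meet the filter, so a gene could be tested through its high days.

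Hypoblast-like cells were set against the same epiblast-like days, which both comparisons share. Of 83 tested members 2 were higher and 8 lower by limma, against 13.3% and 14% of the 9687 genes tested. The median was -0.18 for the members and -0.12 for all genes, and the days did not overlap for 20 members below (24.1%) and 3 above (3.61%). Over all genes tested these shares were 23.1% and 18.6%, so the share below was near that of all genes. COX8C stood at 3.52, 3.58 and 2.68 against 6.60, 5.25 and 5.08, a difference of -2.38 (SE 0.47, adjusted p 0.0026). NDUFB10, an accessory subunit of the membrane arm, stood at 6.41, 6.52 and 6.75 against 7.33, 7.49 and 7.52, a difference of -0.89 (SE 0.20, adjusted p 0.00585). These 2 genes were called lower in each fit that could be run. ATP5G1 stood at 7.82, 7.89 and 7.55 against 8.48, 8.59 and 8.52, a difference of -0.78 (SE 0.17, adjusted p 0.00559), and NDUFA8 at 7.0, 6.81 and 6.98 against 7.62, 7.72 and 7.67, a difference of -0.74 (SE 0.18, adjusted p 0.0102). ATP5G2 was lower by 0.68 (0.0121), so that both c-subunit genes other than ATP5G3 were lower, while ATP5G3 (9.74, 10.07 and 9.61 against 9.96, 9.90 and 9.42) was not called. NDUFA11 (-0.78, adjusted p 0.0403), COX7C (-0.54, 0.0276) and ATP5A1 (-0.47, 0.0458) were lower too. Higher were NDUFB11, at 7.11, 6.66 and 7.01 against 5.67, 6.20 and 6.15 (0.92, SE 0.24, adjusted p 0.0145), and NDUFC1 (0.89, 0.0184). The calls of NDUFA8, NDUFB10, COX8C, ATP5G1 and NDUFB11 held in each of the 6 fits without 1 unit. Without hypoblast-like E08 COX7C had an adjusted p of 0.11, and without epiblast-like E09 NDUFA11 had 0.129, ATP5A1 0.162, NDUFC1 0.0704 and ATP5G2 0.0545. The count of called members was 6 without epiblast-like E08 and 6 without epiblast-like E09. Member medians were -0.23 within title code MS02 (33 against 23 cells) and -0.11 within MS03 (12 against 9 cells), and the 10 called members kept their direction in both. Of 63 other genes of respiration 2 were higher and 11 lower, with PPARGC1B at -2.23 (0.00426), TFB2M at -1.76 (0.000409) and SLC25A5 at -1.17 (0.0039).

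Extraembryonic-mesenchyme-like cells of E13 and E14 were set against epiblast-like cells of those days, units that the first comparison also used. By limma 3 of 81 tested members were lower and none higher, against 13.2% and 12.9% of the 9711 genes tested, and 11 members had an unadjusted p under 0.05. The median was -0.30 for the members and -0.13 for all genes, and the days did not overlap for 33 members below (40.7%) and 2 above (2.47%), against 33.7% and 27.6% of all genes tested. COX8C stood at 2.46 and 2.07 against 5.39 and 4.29, a difference of -2.58 (SE 0.58, adjusted p 0.00843). COX7C stood at 9.79 and 9.54 against 10.43 and 10.38, a difference of -0.74 (SE 0.22, adjusted p 0.0308). NDUFAF7, an assembly factor of complex I, stood at 1.84 and 2.59 against 3.89 and 3.81, a difference of -1.63 (SE 0.54, adjusted p 0.0475). The E13 and E14 cells of this class are different clusters, and 78 of the 88 members had a lower level at E14 than at E13, as in ATP5G1 (8.67 and 7.45), ATP5F1 (8.73 and 7.65) and UQCR11 (8.95 and 7.71). The share of all genes that were lower at E14 is not given here. Of the 14 cells of E14, 12 carry title code MS09, which no E13 cell of the class carries. The days share MS13 alone (8 and 2 cells), so day and title code cannot be told apart in this difference. The 8 extraembryonic mesenchyme markers took 0.763% of RPM at E13 and 2.5% at E14, with 7 of 8 at 3 or more on both days and none at 0, and their part in that difference was not tested. The count of called members was 16 without extraembryonic-mesenchyme-like E13, 0 without epiblast-like E13 and 1 without epiblast-like E14, and in those fits the lone unit of an arm is assumed to vary like the other arm. COX8C lost its call without epiblast-like E13 (0.127), COX7C without epiblast-like E13 (0.234), epiblast-like E14 (0.191) or extraembryonic-mesenchyme-like E14 (0.13), and NDUFAF7 without any unit but extraembryonic-mesenchyme-like E14 (0.139 to 0.241). Within title codes MS10 (4 against 17 cells) and MS61 (4 against 22 cells) the member medians were 0.01 and -0.05, COX8C stood at -1.92 and -2.59, COX7C at -0.60 and -0.70 and NDUFAF7 at -1.95 and -0.34. The cells of this class in both codes are all of E13, while the epiblast-like cells are of E13 and E14. These were 13 and 4 cells in MS10 and 10 and 12 cells in MS61, so the within-code values mix days on 1 side. Of 60 other genes of respiration 7 were lower and 1 higher, with UCP2 at -4.57 (0.000171), the complex IV assembly factor COX20 at -2.41 (0.000571) and VDAC1 at 1.14 (0.0218). UCP2 was read in 37.5% and 50% of extraembryonic-mesenchyme-like cells of E13 and E14, against 100% and 96% of epiblast-like cells. The epiblast-like days alone could meet the filter.

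Gastrulating-like cells of E16 and E17 were set against epiblast-like cells of the same days, which the first comparison also used. No member of 81 tested was called by limma in either direction, while 1.77% of the 9600 genes tested were higher and 2.67% lower, and 2 members had an unadjusted p under 0.05. The median was -0.07 for the members and -0.15 for all genes, and the members' median was 0.07 under quantile normalization. With 2 days on each side, the days did not overlap for 10 members above (12.3%) and 16 below (19.8%), against 15.3% and 29.5% of all genes tested. The 10 hypoblast markers had a mean level of 4.57 and 3.65 in gastrulating-like cells (6 of 10 at 3 or more) and of 1.77 and 1.31 in epiblast-like cells (2 of 10), with none at 0, and their part in the result was not tested. COX8C stood at 0.47 and 1.59 against 2.42 and 2.22, and was read in 3 of 10 and 8 of 18 gastrulating-like cells against 14 of 22 and 18 of 35 epiblast-like cells. After thinning these counts were 1, 5, 9 and 15. NDUFV1 stood at 4.58 and 4.17 against 3.89 and 3.15, and NDUFA8 at 6.56 and 6.90 against 5.51 and 6.21. Neither gene was called, although the days were apart. Within the 4 title codes shared by both classes (MS08, MS09, MS10 and MS11) the member medians lay between -0.12 and 0.06. None of the 60 other genes of respiration tested was called by limma.

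Mouse cells are in a table normalized apart from the monkey table, with 1 unit on each side of a comparison, so levels stand side by side without a test. The 83 genes took 2.68% ± 0.347 (SD over 10 cells) of RPM in ESCs in 2i and LIF and 2.19% ± 0.12 (SD over 12 cells) in EpiLCs. The share was 2.44% in visceral-endoderm-like cells and 2.39% in the other, unnamed cluster at E5.5, and 1.59% to 1.69% in the 3 clusters of E6.5. Besides 9 of 9 visceral endoderm markers, the visceral-endoderm-like clusters had streak and mesoderm markers elevated, 4 of 7 at E5.5 and 3 of 7 at E6.5. In the unnamed cluster of E6.5 the immunoglobulin genes Igkc, Ighm and Igl stood furthest above the other embryo cells. The source of those reads was not tested. EpiLCs were lower than ESCs by at least 1 (log2) in 3 of 77 counted members and higher in none, against 12.8% and 18.4% of 9575 genes. The members' median difference was -0.25 and that of all genes 0.13, and 57 of the 77 members lay below 0. Cox6b2 stood at 4.75 in EpiLCs and 6.44 in ESCs, Ndufaf1 at 3.74 and 4.95, and Ndufb4 at 6.92 and 8.05. Both cultures carry title code MS61.

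Visceral-endoderm-like cells of E6.5 (5 cells) stood lower than those of E5.5 (9 cells) by at least 1 in 33 of 78 counted members and higher in 3, against 38.7% and 9.33% of 9530 genes. The cells of each day form a cluster of their own. The share of lower members was thus near that of all genes. The median was -0.78 for the members and -0.62 for all genes, and -1.21 for the 28 accessory subunits of complex I. Ndufb2 stood at 4.30 at E6.5 and 7.41 at E5.5, Ndufa1 at 4.29 and 7.34, and Cox6c at 5.75 and 8.60, while Atp5d stood at 5.80 and 4.24. The SDs over cells were wider at E6.5, 1.79 against 0.52 (Ndufb2), 2.15 against 0.44 (Ndufa1), 0.68 against 0.28 (Cox6c) and 0.56 against 0.46 (Atp5d). No read depth is given here for mouse cells. All E5.5 cells carry title code MS11 and all E6.5 cells MS77, so day and title code cannot be told apart.

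**Figure D5:**
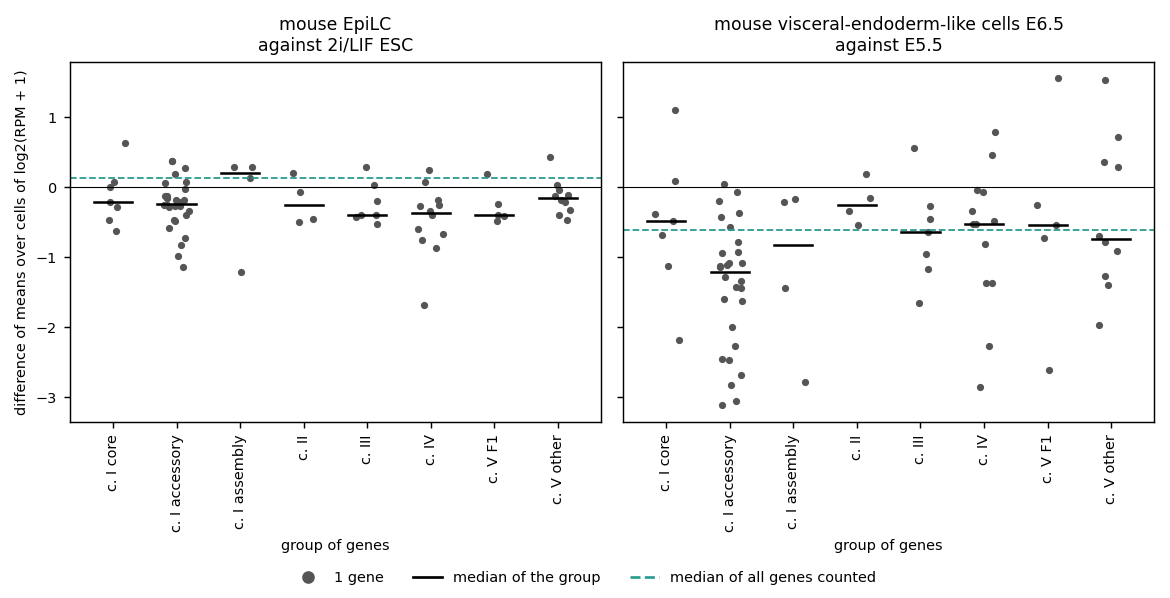
Difference of means over cells of log2(RPM + 1) (y axis) for each mouse gene (points), by group of genes (x axis), for EpiLCs against ESCs (left) and visceral-endoderm-like cells of E6.5 against E5.5 (right). Black bars are group medians and dashed lines the median of all genes counted (0.13 and -0.62); the right panel has 33 genes at -1 or below and the left has 3.

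Several subunits stood at different places in the levels of each species. Cox5a lay between 8.11 and 9.98 in the 7 mouse units, and COX5A between 2.56 and 5.65 in the 25 monkey units. Sdha lay between 6.28 and 7.11 and SDHA between 0.11 and 3.18, while Sdhd lay between 1.69 and 3.29 and SDHD between 6.72 and 8.30. In such pairs the annotated 3′ ends of each genome can differ, which was not tested. Cox7b2 was at 1.43 or below and Cox8c at 0.45 or below in the mouse units, which hold no stage before E5.5, while Cox6b2 reached 6.44 in ESCs and 4.25 in the unnamed cells of E5.5. Cox7a1 was highest in visceral-endoderm-like cells of E5.5, at 3.49.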

How the data were processed

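RPM (library-scaled reads) for single cells are the values deposited by the authors. The tools named in the submitters' processing notes, without roles, are Cufflinks 2.2.0, TopHat 1.4.1 and cutadapt 1.3. How reads were filtered and given to genes is unknown from the labels. The monkey values cover 29095 genes (298 without any value) in 421 cells, and 71 mouse cells entered. A further 37 mouse columns had no matching sample and were left out. Reads per cell were estimated from the smallest RPM steps (0.131% of low values lay more than 0.1 off a whole read). The values were treated as RPM, and no count model was fitted.

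Members and lists were chosen with earlier results of these data known. Genes with a LOC number took a symbol from the reference table by gene ID, and the deposited symbols alone were an added alternative, chosen after seeing the data.

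Cells were clustered with scanpy 1.11.5 on the 2000 most variable genes without the members (Leiden resolution 1) and named where over 50% of a marker list was elevated by at least 1 with a cluster mean of at least 3. No cell was removed and no doublet caller was run. Unit means of log2(RPM + 1), pseudocount 1, of units of at least 5 cells were tested with limma 3.58.1 in R 4.3.3 (lmFit, eBayes with trend), two-sided, with Benjamini-Hochberg adjustment and a threshold of 0.05. A gene was tested where 3 or more units (2 or more where 2 days were set against 2) had a mean of 2 or higher. Fold changes of low genes are understated on this scale. The test was tried on simulated data. Values of 1 member are not reported here, although it enters the counts and medians. For members, up to 5 rises and 5 falls per comparison, paralog pairs, core subunits and the highest and lowest of each complex were to be named, and others are named after their values were seen. Deviations of the same embryonic day from the class means correlated at 0.12 to 0.26 (trophectoderm-like and epiblast-like) and 0.109 to 0.268 (hypoblast-like and epiblast-like), with the pairing taken from the day in the labels. In the comparisons with 2 days the value was 0.29 (extraembryonic-mesenchyme-like and epiblast-like) and 0.354 (gastrulating-like and epiblast-like).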

Additional observations from a re-analysis of the deposited data

Results flagged for a closer look

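Of 44 named members over the 4 late days of epiblast-like cells, 3 had 1 day far from the others, and chance gives about 1 in 20. COX4I2 was highest at E13, at 1.14 with the next day at 0.42. NDUFA4L2 was at 0.052 at E13, from 1 of 24 cells, and listed at 0 on the other days. NDUFC1 was lowest at E14, at 6.80 with the next day at 7.15. Of 15 units of 5 to 10 cells, 1 had a cell with a share of respiratory chain reads far from the rest, a mouse visceral-endoderm-like cell of E5.5 at 2.99%, with the next at 2.54%.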

How the results depend on the processing

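The number of called members in late against early epiblast-like days was 37. It was 24 with no filter on low values, 10 in units of at least 10 cells and 23 among deposited symbols alone, with 23 to 42 in the fits without 1 day. For the ESC cultures 8 became 0 with no filter, 2 under quantile normalization, 2 with the log of the mean RPM, 0 in units of at least 10 cells, 5 among deposited symbols and 1 to 8 without 1 unit. For trophectoderm-like cells 5 became 2 with no filter, 1 in units of at least 10 cells, 3 among deposited symbols and 1 to 6 without 1 unit. For hypoblast-like cells 10 became 6 to 9 without 1 unit, and the median was -0.13 under quantile normalization. For extraembryonic-mesenchyme-like cells 3 became 1 with no filter, 12 in a common fit over all units, 0 among deposited symbols and 0 to 16 without 1 unit. The replicate block on embryonic day gave 16 there and 1 for gastrulating-like cells, where 2 days share only a number; elsewhere the block changed no count of calls by over 1.5 times. Gastrulating-like counts were 0 to 1 without 1 unit.

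The members' median for trophectoderm-like cells lay at -0.089 to 0.14 without 1 unit. That for gastrulating-like cells was 0.072 under quantile normalization, 0.0096 with the log of the mean RPM, 0.026 among deposited symbols and -0.15 to 0.025 without 1 unit. NDUFB1 in ESCs was -0.0399 within title code MS11. The cause of these changes was not tested, except that fewer units or genes enter the smaller sets. The results of comparisons under the alternatives, counts of calls and medians, were graded against the main result. Of these, 156 were graded as the same, 33 as moved and 6 as reversed. The edgeR alternative was not run, and units of at least 10 cells left too few for hypoblast-like cells. Depth limits low paralogs, whose shares fell after thinning.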

Other observations

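The unnamed E06 cells entered no comparison. They stood beside trophectoderm-like cells of the same day at 5.91 against 7.21 for COX8C, 3.60 against 6.27 for COX7B2, 10.51 against 10.73 for ATP5G3 and 5.65 against 5.51 for COX5A. SDHA was at 3.06 and 2.52. The whole cluster of 40 cells, with 4, 4 and 1 of them from E07, E08 and E09, had 3 of 10 hypoblast, 2 of 8 epiblast and 1 of 8 trophectoderm markers elevated. At a resolution of 1.5, or with the members among the clustering genes, the 31 cells of E06 clustered with 1 cell of E07. That cluster had 4 of 8 epiblast, 2 of 10 hypoblast and 1 of 8 trophectoderm markers elevated, and also stayed unnamed.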
